A study of Mus musculus with 147 samples.

Results

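The 6 genes described here encode the extracellular and membrane-bound part of the Nodal pathway: the ligand Nodal, its co-receptor Cripto (encoded by Tdgf1), the secreted inhibitors Lefty1 and Lefty2, and the type II activin receptors Acvr2a and Acvr2b. They were chosen by name from the 31053 genes of a table of unique molecular identifier (UMI) counts. No measured value entered the rule of choice, but earlier results of these data were known when it was made. The table comes from single cells of the mouse male germline sequenced with a modified STRT-seq, which counts the 3′ ends of mRNA molecules. Levels are given for embryonic day (E) 6.5 to E18.5 in wild-type cells and for Helq null cells, and 5340 embryonic cells passed the quality filter, 4246 of them wild type and 1094 Helq null.

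All wild-type embryos came from C57BL/6 females mated with males homozygous for BVSC, a pair of fluorescent reporters in which Blimp1 (Prdm1) drives mVenus and Stella (Dppa3) drives ECFP. Both reporters mark germ cells, and the wild-type offspring carried both. Cells of the BVSC gate were sorted from whole embryos at E8.5 to E10.5 and from gonads from E11.5, and from E14.5 cells with the Stella reporter alone were also taken into it. Negative cells of the gonads were collected beside them from E11.5 to E18.5. Males were picked by a Sry PCR at E10.5 and E11.5, and how E8.5 and E9.5 embryos were sexed is not given in the sources used here. At E6.5 and E7.5 cells were taken under the labels EPIrandom and FACSrandom rather than by the reporters. The Helq null embryos carried a short deletion in the first exon of Helq, a DNA helicase gene, on both alleles. It was made by CRISPR in BVSC embryonic stem cells that were grown from single sorted cells, and chimeras were bred to each other. How many stem cell clones founded the mice, and whether the wild-type cells were littermates, is not given. The Helq null embryos thus came from another cross than the wild-type ones, and their reporter copies and strain background are not given. The gonads of E13.5 to E16.5 were cut into a proximal, a central and a distal part by their place along the mesonephros.

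Nodal is a ligand of the TGF-β superfamily. It needs an EGF-CFC co-receptor such as Cripto to signal through type I receptors (Acvr1b, Acvr1c) and type II receptors (Acvr2a, Acvr2b), which phosphorylate Smad2 and Smad3. These join Smad4 and bind DNA with partners such as Foxh1. The pathway switches on its own ligand and its own inhibitors, Lefty1 and Lefty2, which bind Nodal and its co-receptor, and it is known for patterning the early embryo. In the fetal mouse testis, Nodal and Cripto are known in germ cells around the time these cells leave the pluripotent state and stop dividing. Acvr2a and Acvr2b also serve activins, other TGF-β family ligands made in the gonad.

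The genes lie on 4 chromosomes of mm10 (GENCODE M21 annotation). Nodal is at chr10:61417972-61425338 on the plus strand, Tdgf1 at chr9:110939603-110946158 on the minus strand, Acvr2a at chr2:48814109-48903269 and Acvr2b at chr9:119402118-119434995, both on the plus strand. Lefty2 (chr1:180893108-180899103) and Lefty1 (chr1:180935022-180938400) are plus-strand neighbours 35919 bases apart. Of the words of 50 bases in the last 500 bases of their full-length transcripts, 2.44% in Lefty1 and 0% in Lefty2 also occur in the other gene, so that most 3′ reads of these transcripts can be told apart. In the short transcripts of the annotation the shares are 38.8% and 32.2%, and counts from those would be uncertain.

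The promoters of the co-receptor and of the ligand are shown because levels of both genes moved with age below and because the pathway's own transcription factors bind DNA. Capitals mark matches to AATNNACA, the core recognised by Foxh1, and to CAGAC, a Smad-binding element, which were searched on both strands. The windows run from 250 bases before to 50 bases after the start site in RefSeq (GRCm38.p6), for Tdgf1 at chr9:110946109-110946408 on the minus strand and for Nodal at chr10:61417722-61418021 on the plus strand.
Tdgf1: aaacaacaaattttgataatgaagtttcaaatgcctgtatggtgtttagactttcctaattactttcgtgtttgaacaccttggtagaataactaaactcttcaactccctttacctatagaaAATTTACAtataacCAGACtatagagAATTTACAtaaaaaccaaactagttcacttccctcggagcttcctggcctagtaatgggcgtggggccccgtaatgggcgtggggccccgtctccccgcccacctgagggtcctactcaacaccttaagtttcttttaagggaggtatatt
Nodal: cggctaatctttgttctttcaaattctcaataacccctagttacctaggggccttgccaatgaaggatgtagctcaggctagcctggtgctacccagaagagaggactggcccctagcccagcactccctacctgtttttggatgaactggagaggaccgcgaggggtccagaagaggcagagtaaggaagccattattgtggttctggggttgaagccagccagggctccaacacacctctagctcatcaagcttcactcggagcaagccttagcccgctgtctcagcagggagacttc
In the Tdgf1 window 2 copies of AATTTACA stand upstream of the start site with a CAGAC between them, and no matches overlap. The Nodal window holds neither word, and Acvr2a and Acvr2b hold 1 CAGAC each on the other strand. Over 32851 promoter windows of the same length, 12.2% hold AATNNACA and 49.6% hold CAGAC. These are matches of letters and say nothing of binding. Lefty1 and Lefty2 are not in the promoter table.

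A pool is all cells of a time-point, genotype, gate and replicate, summed, and a replicate is a separate collection, in wild type from more than 1 embryo or gonad per the list of samples. Levels are UMIs of the gene per 1000000 UMIs of the pool (CPM), computed here from the deposited counts. They count molecules and need no division by length. The 24 wild-type BVSC pools held at least 48 cells and 20701229 to 35260188 UMIs, the 16 wild-type negative pools 22 to 48 cells and 2457656 to 14846785 UMIs, and the 9 Helq null BVSC pools 70 to 96 cells and 15892008 to 38338265 UMIs. The E6.5 and E7.5 cells made up 7 pools. The 96 cell barcodes were each used in 52 to 62 libraries and never repeated within a library. Tests were edgeR's quasi-likelihood tests over all genes at a false discovery rate of 0.05, and fold changes are given on the log2 scale with their standard error (SE). The p-values measure the spread between pools. None of the 35 BVSC libraries held more than 1 time-point, so library and time-point cannot be told apart. In sums over cells, fewer cells that express a gene and less RNA per cell cannot be told apart either.

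Several pools went against their labels or stood apart. A cell was counted as having germ cell markers when the sum of Ddx4, Dazl, Dnd1, Dppa3 and Pou5f1 reached 100 CPM and exceeded the sum of Sertoli and interstitial markers. No cell of E8.5 replicate 1 met this, and its pool held visceral endoderm markers (Ttr, Amn, Cubn, Apoa1, Rbp4, Afp) at 6891 CPM in sum against 42.6 CPM of germ cell markers. In E8.5 replicate 3, 23 of 48 cells met it (47.9%), with visceral endoderm markers at 4648 CPM. In E17.5 replicate 1, 47 of 72 cells met it (65.3%), beside Sertoli markers at 638 CPM and interstitial markers at 295 CPM. The other wild-type BVSC pools held 95.7% to 100% and the Helq null BVSC pools 98.6% to 100%. Results resting on the 3 pools are also given without them. Helq null pools of E14.5 and E15.5 were also checked against the wild-type ages, by Pearson r across 15049 genes of log2(CPM + 1), which are not independent. Both Helq null E15.5 pools were closest to wild-type E14.5 (r = 0.976 and 0.966, against 0.935 and 0.947 to E15.5), and Helq null E14.5 replicate 2 lay about as near to E15.5 (0.952) as to E14.5 (0.953). Of all pools, 17 of 24 in wild type and 5 of 9 in Helq null were closest to their own age. A wild-type pool was left out of the mean of its own age, so the 2 shares are not alike. Wild-type E13.5 replicate 1 was closest to E14.5 (0.972, against 0.965 to E13.5) and replicate 2 to E12.5 (0.980, against 0.965). Helq null E13.5 replicate 2 was closest to E14.5 (0.972, against 0.962) and the Helq null E12.5 pool to E13.5 (0.973, against 0.970). Genotype, developmental stage and a wrongly assigned age therefore cannot be told apart from E12.5 to E15.5.

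**Figure D1:**
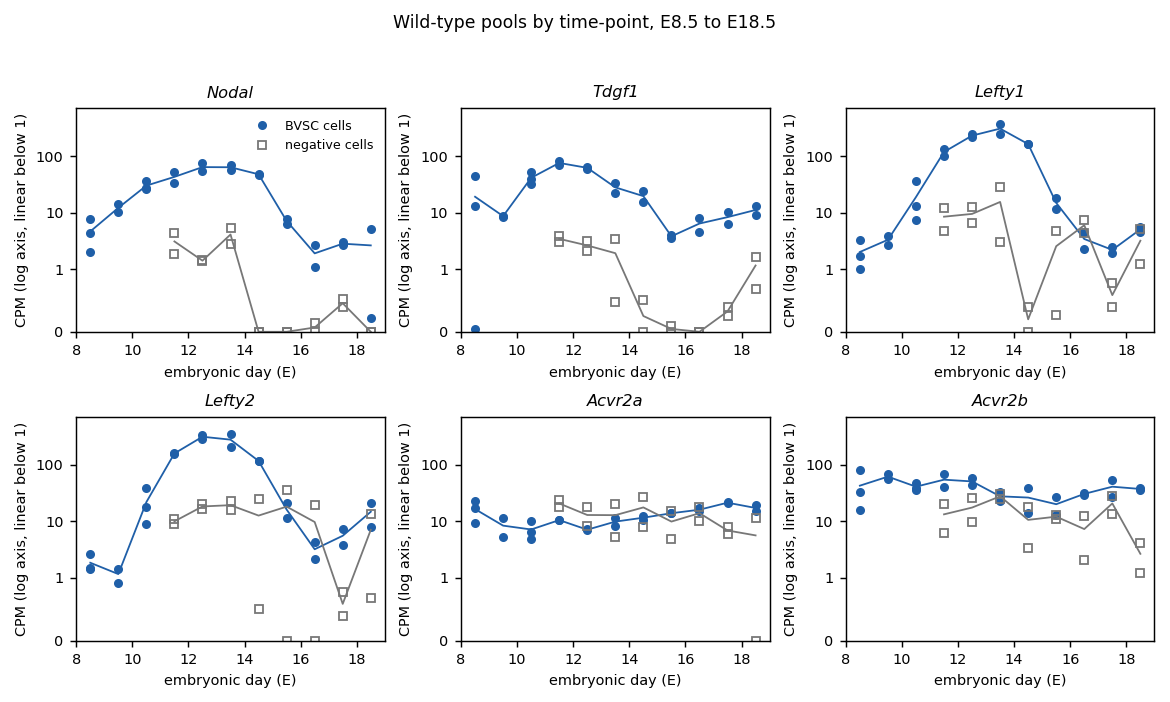
Levels of the 6 genes (vertical axis, CPM, log scale, linear below 1) against embryonic day (horizontal axis) in wild-type pools. Filled circles are BVSC pools, open squares are negative pools and lines join the means of a time-point; Lefty1 and Lefty2 reach 366 and 348 CPM at E13.5 and both receptors stay between 4.84 and 79.4 CPM in BVSC pools.

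Nodal, the ligand, rose in germ cells as they entered the gonad, stayed high to E14.5 and then fell within a day. Its BVSC pools stood at 4.36, 7.54 and 1.98 CPM at E8.5, 13.9 and 10.3 at E9.5, and 27.5, 26.5 and 35.96 at E10.5. They reached 32.7 and 52.98 CPM at E11.5, 53.3 and 74.2 at E12.5, 56.1 and 70.7 at E13.5, and 48.3 and 46.8 at E14.5. At E15.5 they were at 6.39 and 7.82 CPM, and from E16.5 to E18.5 they lay between 0.218 and 5.02. The highest means, at E12.5 (63.8 CPM) and E13.5 (63.4 CPM), differed by less than the spread between their replicates, as did those of E14.5 (47.6 CPM) and E11.5 (42.8 CPM). The lowest mean was at E16.5 (1.89 CPM), and the replicates of E16.5, E17.5 and E18.5 overlapped.

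Against E8.5 to E10.5, Nodal at E11.5 and E12.5 was higher by 2.16 (SE 0.46, edgeR adjusted p = 0.0048). The ranges met, since the lowest gonadal pool (32.7 CPM) lay below the highest E10.5 pool (35.96 CPM), and without E8.5 the difference was 1.44 with an adjusted p of 0.0530. Without the 3 pools in doubt it was 1.93 (edgeR adjusted p = 0.00561). In this comparison 9.17% of the 23673 genes tested were called, and 3 of the 6 members were (Nodal, Lefty1 and Lefty2, all higher). From E14.5 to E15.5 and E16.5 Nodal fell by 3.96 (SE 0.66, edgeR adjusted p = 0.000423), with no overlap between the groups. In that comparison 14.3% of genes were called, with a median over all genes of 0.34, and again 3 of the 6 members were called, all lower. At E17.5 and E18.5 against E15.5 and E16.5, Nodal differed by -0.75 (edgeR adjusted p = 0.433), and without E18.5 replicate 1, the highest of these pools, by -2.43 (edgeR adjusted p = 0.00729).

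Tdgf1, which encodes the co-receptor, had its highest mean at E11.5 (75.6 CPM). Its BVSC pools were at 0.0436, 13.2 and 43.9 CPM at E8.5, 8.48 and 8.79 at E9.5, and 39.2, 31.5 and 52.9 at E10.5. They stood at 82.99 and 68.2 CPM at E11.5 and 65.2 and 58.5 at E12.5, above every other wild-type BVSC pool. The E8.5 values spread with the pools named above, the lowest being the pool without germ cell markers. They then read 21.8 and 34.03 CPM at E13.5, 23.7 and 15.3 at E14.5, and 3.58 and 4.01 at E15.5, the lowest time-point. From E16.5 to E18.5 they were between 4.61 and 13.2 CPM.

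No step of Tdgf1 passed the threshold with all pools. E11.5 and E12.5 differed from E8.5 to E10.5 by 1.89 (SE 0.62, edgeR adjusted p = 0.0650) although the groups did not overlap, and E15.5 and E16.5 differed from E14.5 by -2.27 (SE 0.88, edgeR adjusted p = 0.0900). Without the 3 pools in doubt the first became 2.05 (edgeR adjusted p = 1.06e-05) and the second -2.22 (edgeR adjusted p = 2.25e-05), and E13.5 against E11.5 and E12.5 became -1.22 (edgeR adjusted p = 0.0420). Leaving out E8.5 replicate 1 alone gave adjusted p-values of 0.000618 and 0.000643 for the first and second step. Leaving out E8.5 replicate 3 alone gave 0.0143 for the first.

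Lefty1 and Lefty2, the secreted inhibitors and known targets of the pathway, showed the largest changes of the 6 genes. Lefty1 was at 1.00, 3.32 and 1.69 CPM at E8.5, 3.92 and 2.67 at E9.5, and 7.37, 12.8 and 36.2 at E10.5. It reached 134.7 and 101.999 CPM at E11.5, 215 and 245 at E12.5, 246 and 366 at E13.5, and 162 and 164 at E14.5. It then dropped to 11.7 and 17.9 CPM at E15.5 and to between 1.93 and 5.56 at E16.5 to E18.5. Every pool of E11.5 to E14.5 was above every other pool. E10.5 replicate 3, the highest of the early pools, also held visceral endoderm markers at 540 CPM and globins at 513 CPM in sum, and the part of these cells in its Lefty levels was not tested.

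Lefty2 was at 1.48, 1.42 and 2.64 CPM at E8.5, 0.918 and 1.41 at E9.5, and 9.02, 18.2 and 38.4 at E10.5. It rose to 162 and 156 CPM at E11.5 and was at 286 and 342 at E12.5, 210 and 348 at E13.5, and 117.8 and 116.6 at E14.5. After E14.5 it read 11.2 and 21.02 CPM at E15.5, 2.11 and 4.29 at E16.5, 7.26 and 3.82 at E17.5, and 8.01 and 21.5 at E18.5. Its mean was highest at E12.5 (314 CPM) and that of Lefty1 at E13.5 (306 CPM). For both genes the E12.5 and E13.5 replicates either overlapped or, for Lefty1, lay next to each other at 245 and 246 CPM.

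Against E8.5 to E10.5, Lefty1 at E11.5 and E12.5 was 33.2-fold higher (log2 5.05, SE 0.38, edgeR adjusted p = 4.53e-08) and Lefty2 62.9-fold higher (log2 5.98, SE 0.39, edgeR adjusted p = 8.47e-09). In both genes every gonadal pool was above every earlier pool, and without the 3 pools in doubt the differences were 4.83 and 6.10, both called. Against E14.5, Lefty1 at E15.5 and E16.5 fell by 4.79 (SE 0.50, edgeR adjusted p = 1.33e-05) and Lefty2 fell by 4.29 (SE 0.49, edgeR adjusted p = 1.96e-05). Between these steps neither gene was called. E13.5 differed from E11.5 and E12.5 by 1.01 in Lefty1 and 0.44 in Lefty2, in a comparison that called 0.773% of genes, and E14.5 from E13.5 by -1.08 and -1.42, in one that called 0.123%. At E17.5 and E18.5 against E15.5 and E16.5, where 9.67% of genes were called, Lefty1 was the 1 member called. It was lower by 1.42 on the log2 scale (-1.42, SE 0.43, edgeR adjusted p = 0.0413), with overlapping groups, and the call was lost without the 3 pools in doubt (edgeR adjusted p = 0.0611) and in 18 of 24 fits that left out 1 pool.

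The type II receptors Acvr2a and Acvr2b were present at every age and followed no such course. Acvr2a was at 23.3, 9.19 and 16.9 CPM at E8.5, between 4.84 and 11.48 in the pools of E9.5 to E13.5, with the lowest mean at E12.5 (7.10 CPM), and between 10.53 and 17.1 from E14.5 to E16.5. At E17.5 it was at 20.7 and 21.97 CPM and at E18.5 at 19.4 and 15.1. Acvr2b had its highest mean at E9.5 (67.99 and 55.5 CPM) and its lowest at E15.5 (27.1 and 13.1 CPM), with 16.1, 79.4 and 32.8 CPM at E8.5. In none of the 5 steps between ages was either receptor called, and the fitted differences ran from -0.80 to 0.36. The 8 pools of E8.5 to E10.5 spread from 4.84 to 23.3 CPM for Acvr2a and from 16.1 to 79.4 CPM for Acvr2b. This covered every later pool of Acvr2a and all but 2 later pools of Acvr2b. The 2 were at 14.2 CPM in E14.5 replicate 1 and 13.1 CPM in E15.5 replicate 2. The upper end for Acvr2a and the lower end for Acvr2b came from the E8.5 pool without germ cell markers. Without the E8.5 pools in doubt, early Acvr2a ran from 4.84 to 11.48 CPM, below every pool of E15.5 to E18.5 (13.8 to 21.97 CPM). Early Acvr2b then ran from 36.2 to 79.4 CPM, above every pool of E13.5, E15.5 and E16.5. Other later ages held a pool within that range. Early pools were not tested directly against E15.5 to E18.5.

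Of 29 other genes of the pathway, named by role but with earlier results of these data known, Gdf1 had no UMI in any sorted pool. A count of 0 allows up to 0.145 CPM in the shallowest wild-type BVSC pool. At E11.5 and E12.5 against E8.5 to E10.5, 4 of the 28 tested were higher and none lower, with a median of 0.07 against -0.01 over all genes. Among them were Lhx1, a transcription factor gene known as a Nodal target (4.10, edgeR adjusted p = 1.65e-05), Inha, the inhibin alpha subunit (4.11, edgeR adjusted p = 0.0366), and Skil, a Smad co-repressor (0.76, edgeR adjusted p = 0.0197). Over all genes 4.51% were called higher. Without the 3 pools in doubt these calls held (Lhx1 4.69, Inha 4.83 and Skil 0.61), and Acvr1b was called lower (-0.98, edgeR adjusted p = 0.0403). Lhx1 stood at 118.8, 60.04, 178 and 208 CPM in the 4 gonadal pools against 2.46 to 25.2 in the 8 earlier ones. Inha had a median of 4.26 CPM over the wild-type BVSC pools of E8.5 to E18.5. Its mean in central negative cells of E13.5 to E16.5 was 358 CPM. The part of gonadal somatic cells in the difference of Inha was not tested. Gdf3, another ligand (0.13), the type I receptors Acvr1b (-0.69) and Acvr1c (0.29), Smad2 (0.35), Smad3 (-1.23) and Foxh1 (-0.17) were not called. Cer1, an inhibitor, had 39.1 CPM in E10.5 replicate 3 and at most 2.02 CPM in the other pools up to E13.5.

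At E13.5 against E11.5 and E12.5, 1 pathway gene of 28 was higher, Tgif1, a Smad co-repressor (2.05, edgeR adjusted p = 0.0112), and at E14.5 against E13.5 none was called. Without the 3 pools in doubt, T, a transcription factor gene known as a target, was also called higher at E13.5 (3.65). At E15.5 and E16.5 against E14.5, 8 of 28 were lower and none higher, beside 10.2% lower and 4.1% higher of all genes, with a median of -0.31 while that over all genes was 0.34. The target Lhx1 (-3.38, edgeR adjusted p = 0.00146) fell with Nodal and the Lefty genes. So did the ligand Gdf3 (-2.78, edgeR adjusted p = 0.0326), the repressors Tgif1 (-2.62, edgeR adjusted p = 8.60e-05), Drap1 (-1.80, edgeR adjusted p = 0.00398) and Skil (-0.89, edgeR adjusted p = 0.0372), the inhibitor Dand5 (-2.33, edgeR adjusted p = 0.0399) and, least of the 8, the effector Smad2 (-0.54, edgeR adjusted p = 0.0343). Lhx1 went from 132.8 and 128.5 CPM at E14.5 to 18.47 and 46.6 at E15.5 and 6.96 and 6.84 at E16.5. Without the 3 pools in doubt these calls held and Smad7 was called lower too (-1.02). In that fit the known targets T (3.31) and Gsc (2.42) were called higher, so not all targets fell with Nodal. With all pools, Acvr1b (-0.10), Acvr1c (2.18), Smad3 (-1.66), Foxh1 (-2.82) and Cer1 (-0.86) were not called. At E17.5 and E18.5, 1 of 28 was lower, Smad4, the common partner of the effectors (-0.999, edgeR adjusted p = 0.0132), beside 7.74% of all genes. Without the 3 pools in doubt Smad4 was not called (-0.82, edgeR adjusted p = 0.0565), and Gdf3 (-1.09, edgeR adjusted p = 0.00488) and Drap1 (-0.84, edgeR adjusted p = 0.0448) were.

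Over the 24 wild-type BVSC pools, Lefty1 and Lefty2 followed each other most closely, with Pearson r = 0.963 of log2(CPM + 1). Among 12257 genes with a mean of at least 5 CPM, Lhx1 came next for both, with r = 0.921 for Lefty1 and 0.910 for Lefty2, followed by Cops7a for Lefty1 (0.917) and Nphs1os for Lefty2 (0.897). Nearest to Nodal were AC125141.3 (0.913), Wbp11 (0.913) and Pmm1 (0.908), and nearest to Tdgf1 were Pitpnc1 (0.863), Mir9-3hg (0.855) and Sfn (0.839). Nodal had an r of 0.856 with Lefty1, 0.771 with Lefty2, 0.637 with Tdgf1 and -0.668 with Acvr2a. The points share libraries and depth within a pool and follow 1 course of age, so these values describe likeness only.

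Negative cells of the same gonads, a mix of somatic cells, held little of the ligand and the co-receptor and some of the inhibitors. Over the 16 negative pools Nodal ranged from 0 to 5.41 CPM with a median of 0.263, and Tdgf1 from 0 to 3.78. Lefty1 ranged from 0 to 27.9 CPM with a median of 4.59 and Lefty2 from 0 to 36.4 with a median of 12.3. The negative pools also held germ cell markers at 31.7 to 541 CPM in sum, and the pool with the most, E13.5 replicate 1 at 541, had the highest Nodal and Lefty1. The highest Lefty2, 36.4 CPM in E15.5 replicate 2, stood in the pool with the least germ cell markers (31.7 CPM), where Lefty1 was at 0.273 and Nodal at 0. In that pool 34 of 45 cells (75.6%, exact 95% interval 60.5 to 87.1) had a Lefty2 UMI and 1 had a Lefty1 UMI, and the other E15.5 negative pool had none in 47 cells for Lefty2, with an exact 95% upper limit of 7.55% for cells with a UMI, which is not a limit for cells that express the gene.

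From E11.5 to E18.5, BVSC cells were higher than negative cells in 5 of the 6 genes. In this comparison 60.3% of 21368 genes were called, 36.5% higher and 23.8% lower, with a median over all genes of 0.38. Nodal was higher by 5.10 (SE 0.60, edgeR adjusted p = 2.58e-08), Tdgf1 by 4.70 (SE 0.43, edgeR adjusted p = 2.76e-10), Lefty1 by 3.13 (SE 0.71, edgeR adjusted p = 0.000396), Lefty2 by 2.19 (SE 0.76, edgeR adjusted p = 0.0143) and Acvr2b by 1.33 (SE 0.32, edgeR adjusted p = 0.000675). Acvr2a differed by -0.05 (SE 0.35, edgeR adjusted p = 0.908), with a sign that changed with the scaling. With the replicate number as a block, which ties the gates of the same gonads, Lefty2 differed by 3.25 (edgeR adjusted p = 0.000288). Gate and time-point were not crossed in a test. Over the pools of E15.5 to E18.5 as a whole the gates overlapped for Nodal, Lefty1 and Lefty2 but not for Tdgf1. At E16.5 Lefty1 was at 4.58 and 2.22 CPM in BVSC pools and 4.40 and 7.53 CPM in negative pools, and Tdgf1 at 8.17 and 4.61 CPM in BVSC pools and 0 in both negative pools.

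Of the 27 other pathway genes tested between the gates, 11 were higher in BVSC cells and 12 lower. Among the higher were the ligand Gdf3 (5.02), the DNA-binding partner Foxh1 (3.77), the inhibitor Cer1 (4.55), the repressor Tgif2 (1.24), and the transcription factors known as targets, Lhx1 (5.52), Foxa2 (4.85), T (4.37), Gsc (4.30), Eomes (3.10) and Mixl1 (2.46). Most of these were low in wild-type BVSC pools of E8.5 to E18.5. Medians were 0.61 CPM for Foxh1, 0.66 for Foxa2, 1.22 for Gsc, 1.79 for Mixl1, 1.94 for Cer1, 1.96 for Eomes and 2.22 for T. Lhx1 had a median of 13.03 CPM and Gdf3 of 101.1. T and Mixl1 were highest in E17.5 replicate 2 (86.7 and 23.1 CPM) and Gsc in E18.5 replicate 1 (36.2 CPM). Lower were the activin and inhibin subunits Inhba (-5.76), Inhbb (-4.34) and Inha (-4.26), which supporting cells of the gonad are known to make. Lower too were Smad3 (-2.41), Smad4 (-0.61), the inhibitory Smad7 (-0.65), the proteases Pcsk6 (-2.24) and Furin (-0.94), the inhibitors Dand5 (-1.41) and Fst (-1.40), and the repressors Tgif1 (-1.52) and Drap1 (-1.03). Acvr1b (-0.14), Acvr1c (-1.01) and Smad2 (0.23) were not called.

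**Figure D2:**
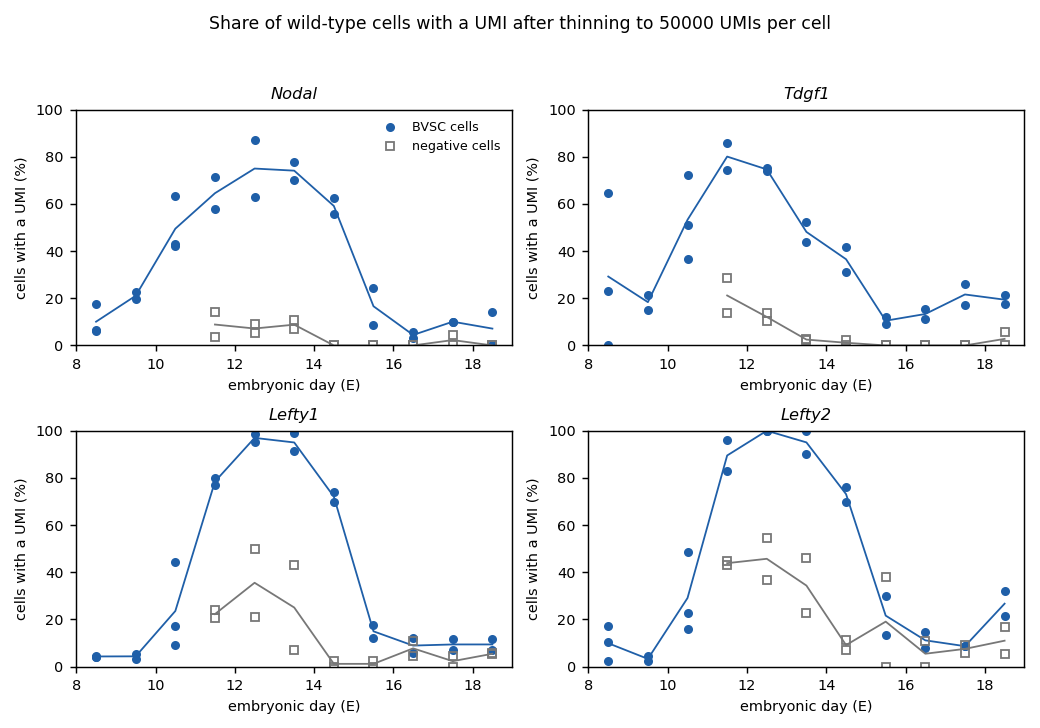
Share of cells with at least 1 UMI (vertical axis, percent) of Nodal, Tdgf1, Lefty1 and Lefty2 against embryonic day after each cell was thinned to 50000 UMIs, per pool of BVSC cells and of negative cells. At E12.5 both BVSC pools are at 100% for Lefty2, above negative pools at 36.8% and 54.5%, and at E15.5 the Lefty2 shares of the gates overlap while Nodal is at 8.79% and 24.4% of BVSC cells and at 0% in both negative pools.

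The share of cells with a UMI followed the same course. To compare cells of unequal depth, each was thinned to 50000 UMIs, and 238 shallower cells were left out. At E12.5, Lefty2 was seen in 100% of cells of both BVSC pools, Lefty1 in 95.4% and 98.6%, Nodal in 63.1% and 86.96%, and Tdgf1 in 75.4% and 73.9%. In the E12.5 negative pools the shares were 36.8% and 54.5% for Lefty2, 21.1% and 50% for Lefty1, 5.26% and 9.09% for Nodal, and 10.53% and 13.6% for Tdgf1. Without thinning, at median depths of 288191 and 368074 UMIs in BVSC pools and 112208 and 139120 in negative pools, Nodal was seen in 77.3% and 97.2% of BVSC cells and 16.7% and 20.8% of negative cells. At E15.5 the thinned shares of BVSC cells were 13.2% and 30% for Lefty2 and 8.79% and 24.4% for Nodal, beside 0% and 38.1% and 0% and 0% in negative cells. The Lefty2 share of E15.5 BVSC cells thus lay within the range of the negative pools.

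Cells with the ligand mostly also held its inhibitors from E11.5 to E14.5. At E12.5, all 41 and all 60 cells with Nodal had Lefty2, and all 62 and all 68 cells with Lefty1 had Lefty2. At E13.5, 62 of 64 and 67 of 67 Nodal cells had Lefty2, and at E14.5, 47 of 58 and 42 of 52. At E10.5 the same count was 9 of 37, 11 of 40 and 39 of 73, and at E15.5 it was 4 of 8 and 10 of 22. Of Nodal cells at E12.5, 33 of 41 and 45 of 60 had Tdgf1, and at E14.5, 26 of 58 and 22 of 52. These counts follow the levels of each gene, since nearly every cell had Lefty2 at E12.5, and no test was made over cells.

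**Figure D3:**
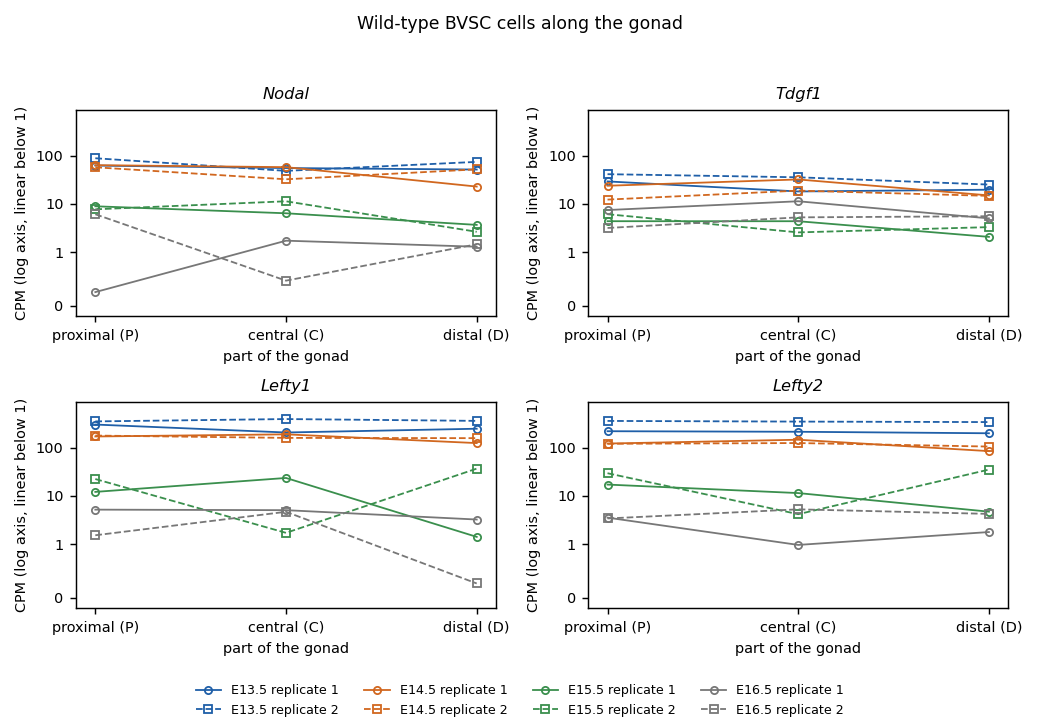
Levels of Nodal, Tdgf1, Lefty1 and Lefty2 (vertical axis, CPM) in wild-type BVSC cells of the proximal, central and distal part of the gonad (horizontal axis) at E13.5 to E16.5. A line is a pool, solid for replicate 1 and dashed for replicate 2. Nodal lies lower in the distal than in the proximal part in 7 of 8 pools, a count not set beside that of all genes, and lines of the same age cross.

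Within the gonad, levels were compared between the parts of each pool from E13.5 to E16.5. Nodal from proximal to distal read 62.2, 55.3 and 51.4 CPM in E13.5 replicate 1 and 88.3, 48.3 and 74.2 in replicate 2. At E14.5 it read 63.4, 57.7 and 22.8 CPM in replicate 1 and 57.3, 32.3 and 51.9 in replicate 2, so that the central part was the lowest in both second replicates. At E15.5 it read 8.90, 6.37 and 3.66 CPM, and 7.70, 11.3 and 2.63 CPM, and at E16.5 0.25, 1.72 and 1.29 CPM, and 6.08, 0.47 and 1.45 CPM. Nodal, Acvr2a and Acvr2b were lower in the distal than in the proximal part in 7 of 8 pools, and Tdgf1, Lefty1 and Lefty2 in 6 of 8. The share of all genes with such counts was not computed, so they describe these genes only. Lefty1 in the proximal, central and distal parts of E15.5 was at 12.1, 23.5 and 1.41 CPM in replicate 1 and 22.3, 1.71 and 36.7 CPM in replicate 2, with no shared order.

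No member passed the test of distal against proximal cells, in which 0% of 18611 genes were called by edgeR, 362 had an unadjusted p under 0.05 and DESeq2 called 77. The difference was -0.78 (SE 0.34) for Nodal, -0.47 for Tdgf1, -0.14 for Lefty1, -0.18 for Lefty2, -0.51 for Acvr2a and -0.44 for Acvr2b, each with an edgeR adjusted p of 0.999. None of the 26 other pathway genes tested was called.

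**Figure D4:**
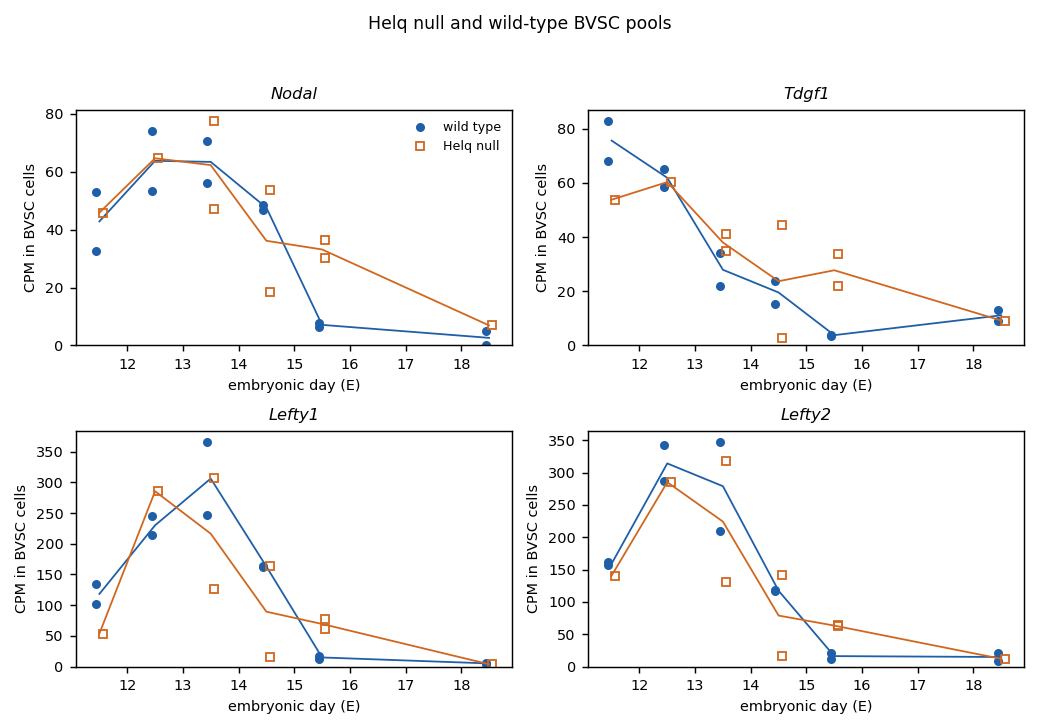
Levels of Nodal, Tdgf1, Lefty1 and Lefty2 (vertical axis, CPM) in BVSC pools of wild type (circles) and Helq null (squares) against embryonic day. At E15.5 both Helq null pools lie above both wild-type pools in all 4 panels, a separation that was not counted over all genes. At E14.5 the Helq null pools lie far apart, for Lefty1 at 163 and 15.6 CPM.

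The Helq null pools address how the loss of the helicase bears on germ cells of E11.5 to E15.5 and E18.5. Helq itself was at 26.8 CPM at E11.5, 39.6 at E12.5, 23.7 and 17.1 at E13.5, 15.9 and 18.1 at E14.5, 23.5 and 21.01 at E15.5, and 26.9 at E18.5, within the 15.1 to 36.5 CPM of the wild-type pools but for E12.5. The 3′ count lies outside the deleted part of the first exon, so this level checks nothing about the genotype. At E11.5, E12.5 and E18.5 there was 1 Helq null pool each. Only 1 library, of E13.5, held cells of both genotypes, so genotype and library cannot be told apart elsewhere.

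At E15.5 the ligand, co-receptor and inhibitors stood higher in Helq null than in wild-type germ cells. Nodal was at 30.04 and 36.3 CPM against 6.39 and 7.82, Tdgf1 at 33.6 and 21.8 CPM against 3.58 and 4.01, Lefty1 at 61.03 and 77.7 CPM against 11.7 and 17.9, and Lefty2 at 63.6 and 63.1 CPM against 11.2 and 21.02. With 2 pools on each side none of these groups overlapped, and the share of all genes without overlap was not counted. In a fit with a mean for each age and genotype, 0.896% of 24787 genes were called at E15.5. Tdgf1 was called (2.95, SE 0.64, edgeR adjusted p = 0.0209), as was Lefty1 (2.28, SE 0.54, edgeR adjusted p = 0.0378). Nodal differed by 2.29 (SE 0.63, edgeR adjusted p = 0.0815) and Lefty2 by 2.02 (SE 0.55, edgeR adjusted p = 0.0774). Visceral endoderm markers summed to 84.7 and 152 CPM in the Helq null and 336 and 222 CPM in the wild-type E15.5 pools, and their part in these differences was not tested. Acvr2a was at 24.5 and 20.5 CPM against 13.8 and 13.99, with a difference of 0.78 (edgeR adjusted p = 0.523), and Acvr2b differed by 0.75 (edgeR adjusted p = 0.559). Of the 28 other pathway genes the ligand Gdf3 was called (1.18, edgeR adjusted p = 0.0489). With Helq null E14.5 replicate 2 left out of the fit, the share of genes called at E15.5 rose to 3% of 24765. In that fit Nodal (2.29, edgeR adjusted p = 0.0251), Tdgf1 (2.95, edgeR adjusted p = 5.55e-05), Lefty1 (2.28, edgeR adjusted p = 0.000118) and Lefty2 (2.03, edgeR adjusted p = 0.00272) were called. Of the pathway genes Gdf3 (1.18), Lhx1 (1.49), Skil (1.19) and Smad2 (0.93) were called, all higher. As both Helq null E15.5 pools were closest to wild-type E14.5 over all genes, these differences and a difference in developmental stage cannot be told apart.

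At E13.5 and E14.5 no member was called between the genotypes in the fit with a mean for each age and genotype, with 1 pool apart. E11.5 and E12.5, with 1 Helq null pool each, were not tested alone. At E13.5, where 0.0888% of genes were called, the Helq null pools had 77.6 and 46.99 CPM of Nodal, 40.98 and 34.97 of Tdgf1, 307 and 126.1 of Lefty1, and 318 and 130.6 of Lefty2, and no member was called (fitted differences from -0.61 to 0.33). At E14.5, where 0.161% were called, Helq null replicate 1 had 53.7 CPM of Nodal, 44.6 of Tdgf1, 163 of Lefty1 and 140.9 of Lefty2. Replicate 2 had 18.6, 2.80, 15.6 and 16.8 CPM of the same genes, below every wild-type E14.5 pool. Its sum of the visceral endoderm genes, which as said above is not specific at these ages, was 177 CPM against 72.96 and 53.6 in wild type. All 96 of its cells had germ cell markers. At E11.5, E12.5 and E18.5 the Helq null pool had 45.9, 64.6 and 6.92 CPM of Nodal and 53.8, 286 and 3.78 CPM of Lefty1. Of these, Lefty1 at E11.5 was below both wild-type pools (134.7 and 101.999 CPM).

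Over all ages no member was called between Helq null and wild type, in a comparison that called 0.705% of 21575 genes. Nodal differed by 0.50 (SE 0.37, edgeR adjusted p = 0.683), Tdgf1 by 0.52 (SE 0.40, edgeR adjusted p = 0.695), Lefty1 by -0.07 (SE 0.38, edgeR adjusted p = 0.972), Lefty2 by 0.06 (SE 0.34, edgeR adjusted p = 0.977), Acvr2a by 0.56 (SE 0.19, edgeR adjusted p = 0.246) and Acvr2b by 0.16 (SE 0.26, edgeR adjusted p = 0.892). Without Helq null E14.5 replicate 2 the values were 0.66, 0.72, 0.15, 0.24, 0.55 and 0.22 in the same order, and none was called. Without E15.5 none was called either, with 0.09 for Nodal. Helq differed by 0.06 (edgeR adjusted p = 0.951). None of the 28 other pathway genes was called, with differences of 0.05 for Gdf3, 0.40 for Acvr1b, 0.57 for Acvr1c, 0.26 for Smad2, 0.78 for Smad3, 0.50 for Foxh1 and -0.81 for Cer1.

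The genotype difference at E15.5 was tested against that at E13.5 as an interaction, in which 0.0121% of 24787 genes, 3 genes, were called. It was 2.42 (SE 0.86, edgeR adjusted p = 0.331) for Nodal, 2.63 (SE 0.86, edgeR adjusted p = 0.291) for Tdgf1, 2.89 (SE 0.74, edgeR adjusted p = 0.149) for Lefty1 and 2.45 (SE 0.76, edgeR adjusted p = 0.272) for Lefty2, so no member passed. Without Helq null E14.5 replicate 2, whose gap to its partner enters the spread of this fit, the edgeR adjusted p-values were 0.163, 0.0121, 0.00199 and 0.0254 in the same order, and leaving out replicate 1 instead gave 0.0170 for Tdgf1, 0.00318 for Lefty1 and 0.0339 for Lefty2. Of all fits that left out 1 pool, Nodal passed in 2 (without wild-type E18.5 replicate 1, adjusted p = 0.0287, or replicate 2, 0.0151), Tdgf1 in 2, Lefty1 in 5 and Lefty2 in 4, those without a wild-type E18.5 pool among them for Lefty1 and Lefty2, and for Lefty1 also the fit without Helq null E13.5 replicate 1. Acvr2a (0.49) and Acvr2b (0.73) passed in none. In the 1 library with both genotypes, distal Helq null and proximal wild-type cells of E13.5 had 80.9 and 62.2 CPM of Nodal, 44.2 and 29.2 of Tdgf1, 301 and 301 of Lefty1, and 322 and 219 of Lefty2, with no test.

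**Figure D5:**
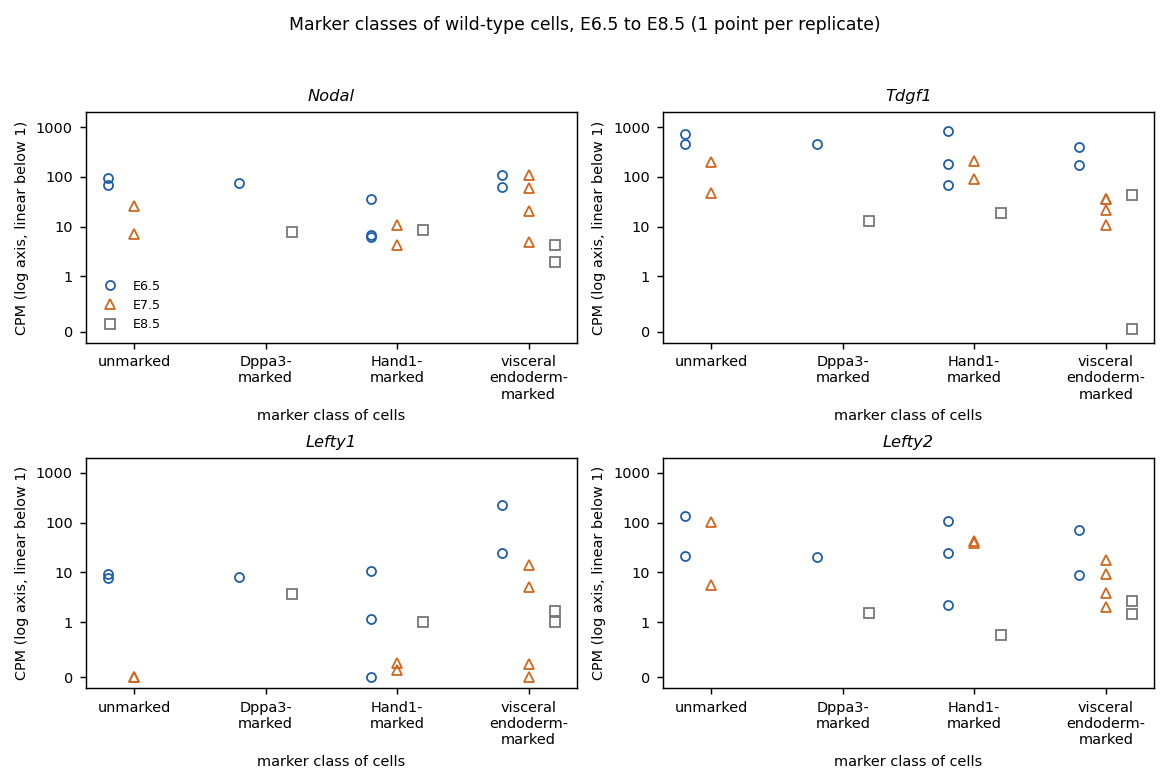
Levels of Nodal, Tdgf1, Lefty1 and Lefty2 (vertical axis, CPM) at E6.5 (circles), E7.5 (triangles) and E8.5 (squares) in cells grouped by marker genes (horizontal axis). A point is a replicate with at least 10 cells of the group; Tdgf1 is at 463 and 738 CPM in unmarked cells of E6.5 and Lefty1 is highest in visceral endoderm-marked cells of E6.5 replicate 3, at 226 CPM.

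Before the germ cells could be sorted by their reporters, the pathway was read in cells of the early embryo. Tdgf1 was at 304, 184 and 668 CPM in the 3 pools of E6.5 and at 59.3, 200.2, 36.4 and 10.7 CPM in the 4 pools of E7.5. Nodal was at 59.5, 6.25 and 68.5 CPM at E6.5 and at 4.75, 12.9, 106.8 and 20.1 CPM at E7.5. Lefty1 was at 13.3, 0 and 82.1 CPM and then 0.242, 0.117, 14.3 and 5.08 CPM, and Lefty2 at 14.2, 24.6 and 98.5 CPM and then 27.8, 39.8, 2.04 and 9.10 CPM. The ranges of the ages overlapped in all 4 genes, and the pools differed in their cells. E6.5 replicate 2 held 158 of 166 cells with the mesoderm marker Hand1, and of E7.5 replicates 3 and 4, 95 of 95 and 46 of 47 cells were marked as visceral endoderm. The 46 cells of replicate 4 also held germ cell markers at 922 CPM in sum, with Dppa3 at 499 CPM, and were grouped as visceral endoderm-marked because that mark was read first.

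Cells of E6.5 to E8.5 were therefore set apart by markers: visceral endoderm-marked with at least 4 of the 6 markers at 50 CPM or more, then Hand1-marked, then Dppa3-marked at the same level, and otherwise unmarked. At E6.5, unmarked cells had 69.3 and 95.7 CPM of Nodal and 463 and 738 CPM of Tdgf1 (replicates 1 and 3). Hand1-marked cells had less Nodal, 6.88, 6.32 and 35.1 CPM, and 68.2, 183 and 833 CPM of Tdgf1. These cells were not alike between replicates. The mesoderm gene Mesp1 was at 1.12 CPM in replicate 1 and at 379 and 412 CPM in replicates 2 and 3. Visceral endoderm-marked cells had 62.6 and 110 CPM of Nodal, 24.5 and 226 CPM of Lefty1, and 70.3 and 433 CPM of Cer1, an inhibitor known from the anterior visceral endoderm. Dppa3-marked cells, 29 in replicate 1, had 73.9 CPM of Nodal and 465 CPM of Tdgf1, close to the unmarked cells of that replicate.

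At E7.5 the Hand1-marked cells of replicates 1 and 2 had 90.2 and 209 CPM of Tdgf1, 4.22 and 10.7 CPM of Nodal, and 43.6 and 39.6 CPM of Lefty2, with Lefty1 at 0.27 and 0.13 CPM. Lefty2 was the higher of the inhibitors in these cells. The visceral endoderm-marked cells of replicate 3 had 106.8 CPM of Nodal, 14.3 CPM of Lefty1, 2.04 CPM of Lefty2 and 451 CPM of Cer1. Lefty1 was the higher inhibitor in that replicate alone, since the visceral endoderm-marked cells of replicates 1, 2 and 4 had 17.52, 3.77 and 9.14 CPM of Lefty2 and 0.248, 0 and 5.10 CPM of Lefty1. At E8.5, the 78 Dppa3-marked cells of replicate 2 had 7.62 CPM of Nodal, 12.9 of Tdgf1, 3.71 of Lefty1 and 1.54 of Lefty2. Between all cells of E7.5 and E6.5 no member was called, where edgeR called 0% of 17409 genes, 680 had an unadjusted p under 0.05 and DESeq2 called 68. The differences were -0.40 for Nodal, -2.48 for Tdgf1 (SE 0.84), -2.82 for Lefty1 (SE 1.98), -1.35 for Lefty2, 0.13 for Acvr2a and -0.33 for Acvr2b, with edgeR adjusted p-values of 0.927 to 0.975, and none of 27 other pathway genes was called.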

How the data were processed

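The samples were 147 libraries of modified STRT-seq. The labels name libraries only, so time-point, genotype, replicate, gate and gonad part of each cell were taken from the table of cells and the cell names, which were the same in 13032 of 13032 cells. The deposited values are UMI counts per gene and cell, not normalized. Per the paper's methods, the authors took cell barcodes and UMIs with UMI-tools, mapped reads to mm10 with STAR and counted uniquely mapped reads with featureCounts (Subread), and the labels name CASAVA 1.8. Sums per cell equalled the listed totals in 5472 of 5472 embryonic cells. The 7560 columns of cells from later ages were not used.

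Cells with over 2000 genes and 10000 to 1000000 UMIs were kept (10289 to 986517 UMIs, median 281486.5). No doublet caller was run, since cells were picked singly. Counts were summed per pool and tested with edgeR 4.0.16 (limma 3.58.1, R 4.3.3) by the quasi-likelihood test with TMM and filterByExpr, adjusted by Benjamini-Hochberg over all genes. Ages were fitted together over the 24 wild-type BVSC pools, the gates over pools of E11.5 to E18.5, positions and genotypes with age as covariate. DESeq2 1.42.0 was an alternative. In tests on simulated counts, 4-fold changes were recovered in 45.5% of genes for the ages, 52% for the gates, 65% for position, 57.5% for genotype, 40% for E7.5 and 15% for the interaction. Replicate numbers were checked for pairing: pools deviated together (r over 0.1) in 24 of 24 pairs of gonad parts, 10 of 16 of gates, 38 of 111 of ages and 0 of 6 of genotypes. Where groups had 2 replicates, their deviations mirror each other, so the same r enters these counts once per replicate and the pairs are not independent.

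The members are named in every comparison, and of 29 pathway genes those past the threshold and Gdf3, Acvr1b, Acvr1c, Smad2, Smad3, Foxh1 and Cer1. A pathway gene that enters the counts is not reported here by name. The 3 genes most like each of Nodal, Tdgf1, Lefty1 and Lefty2 are named by Pearson's r. Members and lists were chosen with earlier results of these data known. Intervals and limits for a count of 0 (3 UMIs per pool) cover counting error only.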

Additional observations from a re-analysis of the deposited data

Results flagged for a closer look

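At E7.5, Nodal in replicate 3 was at 106.8 CPM while the other 3 replicates were at 4.75, 12.9 and 20.1 CPM, a gap to the nearest replicate of 0.85 of the whole range. Such a gap arises by chance in about 1 in 20 groups, and all 95 cells of this pool were marked as visceral endoderm, with Cer1 at 451 CPM.

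At E11.5, 32 cells of replicate 1 were sorted under a gate labelled BV, which no comparison used. They held 62.9 CPM of Nodal, 78.4 of Tdgf1, 128.4 of Lefty1, 169 of Lefty2 and 71.2 of Acvr2b, each above both E11.5 negative pools, which had at most 4.29, 3.78, 12.1, 11.1 and 20.4 CPM. All 32 cells had germ cell markers. The BVSC pools of the same age stood at 32.7 and 52.98 CPM of Nodal, 82.99 and 68.2 of Tdgf1, 134.7 and 101.999 of Lefty1, 162 and 156 of Lefty2, and 67.9 and 41.3 of Acvr2b, and the difference was not tested.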

How the results depend on the processing

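The rise of Lefty1 and Lefty2 into E11.5 and E12.5, the fall of Nodal, Lefty1 and Lefty2 after E14.5 and the gate differences of Nodal, Tdgf1, Lefty1, Lefty2 and Acvr2b kept their direction and call under every alternative run. Of 522 member values under alternatives other than leaving out a pool, 470 kept direction and call, and of 1158 with a pool left out, 1091. Tdgf1 at E11.5 and E12.5 was called under DESeq2 (adjusted p = 0.0273), limma (0.0396), no filter on low counts (0.0205), cells with germ cell markers (7.51e-05), without E8.5 (0.000154) and with the replicate block (2.42, 0.0257). At E15.5 and E16.5, Tdgf1 was called with no filter (0.0451), in cells with germ cell markers (0.00012) and without E8.5 (7.26e-05). Lefty1 at E17.5 and E18.5 lost its call with RLE scaling (-1.16, 0.101) and limma (-1.001, 0.0664). The interaction of genotype and age was called with no filter for Nodal (0.00108), Tdgf1 (0.000976), Lefty1 (3.42e-11) and Lefty2 (2.83e-08), and Acvr2a between genotypes under DESeq2 (0.0242). The cause was not tested in any of these. Leaving out E8.5, E15.5 or the 3 pools, single ages between genotypes, crossed numbers and EPIrandom cells were alternatives chosen after the data were seen.

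Signs turned in values that were not called with all pools, as follows. Lefty2 at E17.5 and E18.5 was -0.018 with all cells, -0.010 with limma and -0.17 without the 3 pools in doubt, and Acvr2a at E13.5 -0.0090 with limma. At E11.5 and E12.5, Acvr2a was 0.13 in cells with germ cell markers, 0.15 without E8.5 and 0.11 without the 3 pools, and Acvr2b -0.046 in cells with germ cell markers and -0.13 without the 3 pools. Between gates Acvr2a was 0.061 under DESeq2, 0.066 with RLE, 0.34 with limma and 0.13 with the block. Between genotypes, Lefty2 was -0.10 with limma, -0.38 without E15.5, -0.43 at E13.5 and -0.66 at E14.5 alone and -0.11 with the replicate numbers crossed. Lefty1 was 0.14 in time-points with 2 Helq null pools and 2.28 at E15.5 alone, which was called with and without Helq null E14.5 replicate 2, Tdgf1 -0.0047 without E15.5, and Nodal -0.13 at E13.5 and -0.46 at E14.5 alone. In EPIrandom cells only, E7.5 against E6.5 gave 1.10 for Lefty2, -0.012 for Acvr2a and 0.19 for Acvr2b.

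Shares of tested genes that were called moved further, in percent. DESeq2 called 20.1 at E11.5 and E12.5, 5.74 at E13.5, 2.07 at E14.5, 3.02 between genotypes, 1.26 in the interaction, 0.369 at E7.5 and 0.291 between positions. With no filter these were 1.22 at E13.5, 0.245 at E14.5, 1.34 between genotypes and 1.84 in the interaction. Cells with germ cell markers gave 3.02, 0.860 and 21.6 for E13.5, E14.5 and E15.5 to E16.5 and 0.0243 in the interaction, leaving out E8.5 gave 4.10, 0.802 and 23.02 for the same ages, and leaving out the 3 pools 4.31, 1.04 and 20.9. Limma called 0.520, 28.2 and 29.6 at E14.5, E15.5 to E16.5 and E17.5 to E18.5, and RLE 5.62 in the last. Between genotypes 0.381 were called in time-points with 2 Helq null pools, 0.454 without E15.5, and 0.0888 at E13.5 and 0.161 at E14.5 alone, and 2.996 at E15.5 alone without Helq null E14.5 replicate 2.

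Leaving out 1 pool, 4.56 to 15.3 percent of genes were called at E11.5 and E12.5, 0.0159 to 2.12 at E13.5, 0 to 0.330 at E14.5, 4.69 to 19.4 at E15.5 and E16.5, 3.25 to 13.4 at E17.5 and E18.5, none at E7.5 and between positions, 54.5 to 57.4 between gates, 0.452 to 0.883 between genotypes and 0 to 0.598 in the interaction. Over these fits uncalled members changed sign: Acvr2a between gates (-0.19 to 0.19), at E11.5 and E12.5 (-0.33 to 0.021), at E14.5 (-0.088 to 0.26) and at E7.5 (-0.028 to 0.26), Acvr2b at E11.5 and E12.5 (-0.025 to 0.46), E14.5 (-1.11 to 0.27), E15.5 and E16.5 (-0.83 to 0.55) and between genotypes (-0.054 to 0.29), Lefty2 at E13.5 (-0.069 to 0.77), E17.5 and E18.5 (-0.34 to 0.43), E7.5 (-1.88 to 0.010) and between genotypes (-0.16 to 0.24), Lefty1 between genotypes (-0.32 to 0.15) and Nodal at E7.5 (-1.99 to 0.059).

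With the replicate block, 7.07, 0.689, 0.165, 14.1 and 9.09 percent of genes were called over the ages in order, 56.5 between gates, none between positions and at E7.5 and 0.635 between genotypes, and of the members only Tdgf1 at E11.5 and E12.5 changed a call. Depth limits the negative cells most, where a count of 0 in the pool of 2457656 UMIs allows up to 1.22 CPM. The comparison within the library of both genotypes gave no test.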
